A study of Mus musculus with 5 samples.

Results

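Natural killer (NK) cells were the 407 of 21531 single immune cells (1.89%, 95% interval 1.71 to 2.08%) that carried NK receptor transcripts and lacked those of T cells, B cells and macrophages. A cell was counted as an NK cell where the unique molecular identifiers (UMIs, 1 for each captured transcript) of Ncr1, Klrb1c and Klre1 summed to at least 3, with at least 1 from Ncr1. It also had to hold at most 1 UMI of Cd3e and Cd3d together, at most 1 of Cd8b1, at most 1 of Cd79a and at most 5 of C1qa, C1qb and C1qc together. The other 21124 cells that passed the filters on genes and mitochondrial transcripts served for comparison.

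The cells were live CD45+ cells sorted from 3 mice, and each mouse gave a tumour, a tumour-draining lymph node (dLN) and a non-draining lymph node (non-dLN). Mouse 1 had received nivolumab_mIgG1_D265A, mouse 2 nivolumab_mIgG1 and mouse 3 the isotype control MOPC21. Nivolumab is an antibody against human PD-1, an inhibitory receptor. The mouse gene of PD-1, counted here, is Pdcd1. The D265A exchange lies in the Fc part, the stem by which Fc receptors hold an antibody. The sources do not state the mouse strain, age, tumour model or schedule of treatment. Hashtag antibodies marked the 9 samples before they were run as 1 pool, and no source states which tag marks which sample. Cells are accordingly grouped here into populations 1 to 9 by the number of their tag. They are no replicates of any group, neither antibodies nor sites were compared, and no test was run. Every interval is a 95% interval that covers counting error only. A population held 2056 to 2581 cells and 9202501 to 31330079 UMIs.

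NK cells are innate lymphocytes that kill infected and malignant cells without a rearranged antigen receptor. A balance of activating receptors, which signal through small adaptor proteins, and inhibitory receptors, many of which read MHC class I, decides whether a cell kills. Killing proceeds by perforin pores and granzyme proteases, and NK cells also release interferon-gamma and chemokines that draw dendritic cells. In mice most receptors of the Ly49 (Klra), NKR-P1 (Klrb1) and NKG2 (Klrc, Klrk1) families lie side by side on chromosome 6.

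The marker rule fixed the levels of Ncr1, Klrb1c and Klre1, which are not results. The median NK cell held 8 UMIs of the 3 genes and the highest 46. At the edge, 35 cells had a sum of exactly 3 and were counted, and 26 cells that met every other condition had a sum of exactly 2 and were not. Cells just inside had 171 CPM (counts of a gene per 1000000 UMIs) of Eomes, 3522 CPM of Gzma and 2134 CPM of Tyrobp, against 219.8 CPM of Eomes, 1162 CPM of Gzma and 1518 CPM of Tyrobp in cells just outside. The excluded genes removed 58 of 465 cells that had Ncr1 and a sum of at least 3. T cell genes took out 45 of them, C1q genes 15, Cd8b1 7 and Cd79a 6, with overlap. A further 82 cells had a sum of at least 3 without an Ncr1 UMI.

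Marker genes that the rule had not used set the NK cells apart from T cells, B cells and macrophages. Eomes, the T-box factor of NK cells, reached 166 CPM in NK cells and 8.30 CPM in the other cells, a ratio of 20.1 (18.0 to 22.4). An Eomes UMI was seen in 66 of 111, 105 of 185 and 47 of 74 NK cells of populations 1, 4 and 7. Whether type 1 innate lymphoid cells are among the NK cells was not tested. Markers of other lineages outside the rule were low in NK cells: the 6 T cell genes summed to 86.2 CPM in NK cells against 1021 CPM in other cells, the 4 B cell genes to 5.93 against 558 CPM and the 4 macrophage genes to 34.9 against 2343 CPM. With the genes that the rule limits, the sums were 109 against 2002 CPM, 15.7 against 1251 CPM and 120.4 against 8925 CPM, in part fixed by the rule. Mrc1 of macrophages, Chil3 and Hp of monocytes, S100a8 and S100a9 of neutrophils, Siglech of plasmacytoid dendritic cells, Il1rl1 and Il23r of innate lymphoid cells 2 and 3, and Mcpt8, Fcer1a and Ms4a2 of mast cells and basophils had 0 UMIs in the NK cells. The monocyte list was less far apart, at 1191 CPM in NK cells and 3494 CPM in other cells, and holds Ccr2 and Plac8, which NK cells also carry. The list of mast cells and basophils was higher in NK cells, at 138 CPM against 8.66 CPM in other cells, through Kit, and the non-immune list stood at 104 CPM in NK cells and 84.7 CPM in other cells. Summed levels were 28.6 against 56.5 CPM for innate lymphoid cells 2 and 3, 242 against 3601 CPM for dendritic cells, 0.349 against 33.8 CPM for neutrophils and 0.698 against 20.3 CPM for red cells and platelets. The part of other cells' RNA in the results was not tested. The gamma-delta T cell list and Trac, Trbc1 and Trbc2 were not analysed here. A Cd3e or Cd3d UMI was present in 49 NK cells, a Cd3g UMI in 31, and none of the 3 in 338.

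NK cells were unevenly spread over the populations. Populations 1, 4 and 7 held 111, 185 and 74 of them, which is 5.40% (4.46 to 6.47%), 8.03% (6.95 to 9.22%) and 3.00% (2.36 to 3.75%) of their cells. The other 6 populations held 3 to 9 NK cells each, or 0.124 to 0.388% of their cells, and the median over all 9 was 0.380%. Intervals of populations 1, 4 and 7 did not overlap those of the other 6, and the interval of population 4 lay above those of populations 1 and 7. Depth moves with this count, because the rule needs 3 UMIs: median UMIs per cell in populations 1, 4 and 7 were 5397, 6908 and 4617.5 in NK cells and 5714, 7231 and 10900 in other cells, and over all populations 5578 in NK cells and 3945.5 in other cells. After every cell was thinned to 1500 UMIs and the 1295 shallower cells were left out, the rule found 136 NK cells in 20236 (0.672%). Populations 1, 4 and 7 then had 2.20, 2.28 and 1.05% and the others 0.0411 to 0.362%, so the same 3 were highest. Populations 1 and 4 then no longer differed beyond their intervals, and the interval of population 7 (0.683 to 1.55%) overlapped that of population 3 (0.156 to 0.712%). A share of sorted CD45+ cells cannot tell more NK cells from fewer other cells.

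**Figure D1:**
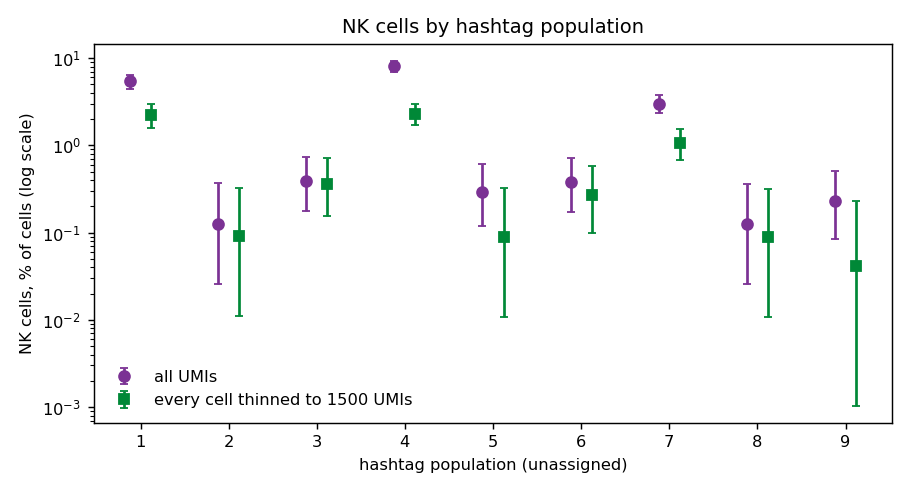
NK cells as a percentage of the cells of each hashtag population (log scale), from all UMIs (circles) and after thinning every cell to 1500 UMIs (squares); bars are exact 95% intervals. Populations 1, 4 and 7 lie between 3.00 and 8.03% with all UMIs, and the other 6 between 0.124 and 0.388%.

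Summed over cells, 864 of 13442 measured genes (6.43%) were higher by 2-fold or more in NK cells than in all other cells and 1899 (14.1%) at least 2-fold lower, each with an interval that left out 1. Measured genes were those with 50 or more UMIs over both classes. The members had been chosen on counts of the same cells, so these numbers are a description. NK cells come mostly from populations 1, 4 and 7 and the other cells from all 9. Within each of those 3 populations, 447 of 12224 genes (3.66%) were higher in every one and 906 (7.41%) lower in every one. The median log2 ratio of all genes was -0.01.

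Among genes with at least 50 UMIs in NK cells, the 15 with the highest ratio included 3 Ly49 receptors (Klra4, Klra8 and Klra9), 2 NKR-P1 receptors (Klrb1a and Klrb1f) and 2 granzymes (Gzmc and Gzmg). Klra8, the Ly49H activating receptor, reached 371 CPM (349 to 394) in NK cells and 4.63 CPM (4.26 to 5.02) in other cells, a ratio of 80.0, with 52.6, 21.8 and 214 within populations 1, 4 and 7. Klrb1a stood at 91.1 CPM in NK cells and 0.797 CPM in other cells, a ratio of 114 (90.4 to 145), with 44.2, 41.3 and 258 within populations 1, 4 and 7. Clnk, an adaptor of immunoreceptor signalling, reached 226 CPM in NK cells and 4.18 CPM in other cells (ratio 54.1) and was seen in 62.7% of NK cells. Car2, which encodes carbonic anhydrase 2, was the most widely carried of the 15, with a UMI in 81.1% of NK cells and 503 CPM in NK cells against 10.99 CPM in other cells (ratio 45.7). Khdc1a had the highest ratio, 167 (117 to 244), from 149 UMIs in NK cells. Vegfc, a growth factor of lymphatic vessels, had 52.0 CPM in NK cells and 0.694 CPM in other cells, a ratio of 75.0, with a UMI in 22.6% of NK cells. Ratios within populations 1, 4 and 7 were 24.9, 29.7 and 97.4 for Car2 and 24.6, 29.7 and 233 for Vegfc. At 1500 UMIs per cell, 47.0% of NK cells and 1.78% of B cells had a UMI of Car2, 27.7 and 0.125% of Clnk and 6.62 and 0.0223% of Vegfc. The remaining members of the 15 were Gm19590, Phactr3, Csf2 and Ccdc184. Csf2, the cytokine GM-CSF, came from few cells: 103 of its 118 UMIs were in 9 cells of population 4, and 45 of them in 1 cell. Gm19590 had 0 UMIs in the NK cells of population 7.

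**Figure D2:**
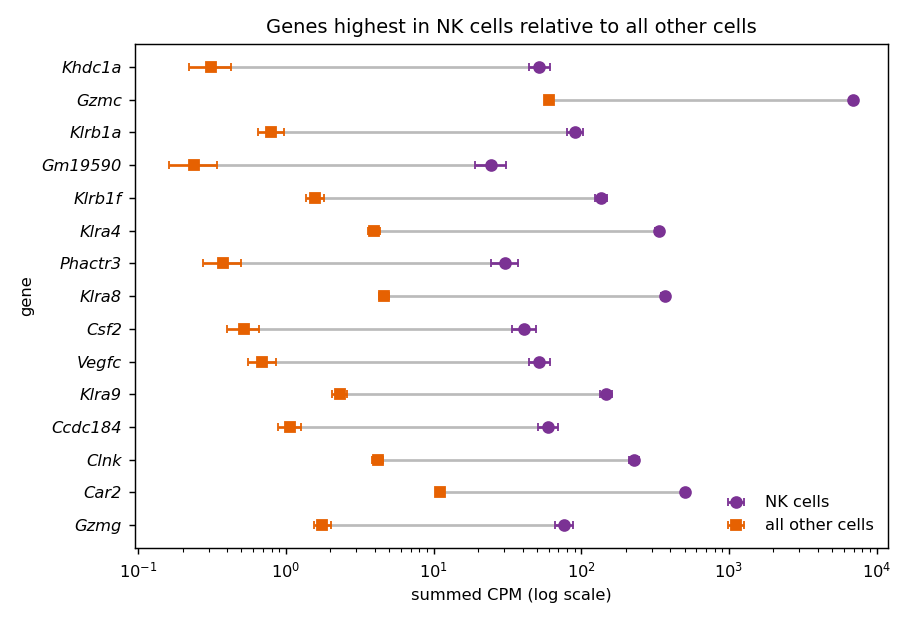
Summed CPM (log scale) in the 407 NK cells (circles) and in all other cells (squares) for the 15 genes with the highest ratio among genes with at least 50 NK UMIs; bars are exact Poisson 95% intervals. Gzmc stands at 6939 CPM in NK cells against 60.4 CPM in other cells, and Khdc1a, the gene with the highest ratio, at 52.0 against 0.311 CPM.

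The NK identity genes that the rule had not used were higher in NK cells in 8 of 9 cases, and 5 within each of populations 1, 4 and 7. The kinase-linked receptor subunit Il2rb, through which interleukin 2 and interleukin 15 signal, reached 1061 CPM in NK cells and 114 CPM in other cells (ratio 9.32). Tbx21, the T-box factor T-bet, stood at 220 CPM in NK cells and 24.8 CPM in other cells (8.87), and Itga2, the integrin CD49b used to sort mouse NK cells, at 38.4 against 1.75 CPM (21.9). Fcer1g, the signalling chain shared by Fc receptors, was the member without a call: 2547 CPM in NK cells and 2156 CPM in other cells, a ratio of 1.18. Myeloid cells among the other cells carry Fcer1g as well, and Tyrobp, their DAP12 adaptor, was likewise only 2.21-fold higher in the pooled comparison.

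Of 18 measured activating receptors and adaptors, 12 were higher and 2 lower in NK cells, with a median log2 ratio of 1.56. Within populations 1, 4 and 7, 9 were higher in every one and 2 lower in every one. NKG2D (Klrk1) had 579 CPM in NK cells and 77.6 CPM in other cells (7.46-fold), Klrc2 85.8 against 5.08 CPM (16.9-fold), and Cd244, the 2B4 receptor, 115 against 18.0 CPM (6.37-fold). Crtam, an adhesion receptor of activated killer cells, stood at 76.4 CPM in NK cells and 9.66 CPM in other cells (7.92-fold). Fcgr3, the Fc receptor CD16 by which NK cells attack antibody-coated cells, was among the 2 lower genes: 73.3 CPM in NK cells and 291 CPM in other cells, a ratio of 0.252. Slamf6 was the other, with 4.54 CPM in NK cells and 48.8 CPM in other cells. Within populations 1, 4 and 7 Fcgr3 stood at 87.6, 65.1 and 90.7 CPM in NK cells, against 322, 546 and 624 CPM in other cells.

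Among 19 measured inhibitory receptors, 12 were higher and 3 lower, with a median log2 ratio of 2.03. Within populations 1, 4 and 7, 6 were higher in every one and 2 lower in every one. NKG2A (Klrc1) had 403 CPM in NK cells and 69.9 CPM in other cells (5.77-fold), and its partner CD94 (Klrd1) 917 against 147.0 CPM (6.24-fold). Klrb1b, the receptor of the ligand Clec2d, stood at 191 CPM in NK cells and 26.5 CPM in other cells (7.20-fold). Tigit, a receptor of nectin-family ligands, had 269 CPM in NK cells and 65.8 CPM in other cells (4.08-fold). Havcr2, which encodes TIM-3, was nearly missing from NK cells, with 6 UMIs in all (2.09 CPM) against 95.2 CPM in other cells, and Ceacam1 and Pilra were the other lower genes. Lag3 had 86.5 CPM in NK cells and 77.9 CPM in other cells, with no call.

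The receptor genes share a stretch of chromosome 6. Between Klrb1a and Klra2 (chr6:128609227-131247362, GRCm38) the table holds 49 genes, which summed to 5295 CPM in NK cells and 1112 CPM in other cells. Of the 36 measured there outside the marker rule, 21 were higher and 7 lower in NK cells. The 7 lower ones were Clec2g, Gm15987, Clec12a, Clec9a, Olr1, Klra17 and Klra2, of which Clec9a marks dendritic cells and Clec12a myeloid cells. Klra17 and Klra2 are the members of the Ly49 family in the stretch that were lower in NK cells, at 0.349 and 2.09 CPM in NK cells against 5.99 and 111.6 CPM in other cells. Some genes within the Ly49 family, and some within the NKR-P1 family, are close copies, so reads of 1 gene may have been counted at another or dropped.

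NK cells carried different sets of Ly49 genes from cell to cell. The inhibitory and activating Ly49 receptors are switched on in part of the NK cells each, which is known from mouse NK cells as variegated expression. Klra8 was seen in 48.6, 47.6 and 47.3% of the NK cells of populations 1, 4 and 7, and Klra7 (Ly49G) in 44.1, 42.7 and 40.5%. Klra4 (Ly49D) was seen in 40.5, 41.1 and 29.7% and Klra9 (Ly49I) in 27.0, 38.9 and 37.8%. Klra1 (Ly49A) was rarer, in 12.6, 16.2 and 10.8%. Klra3 (Ly49C) was seen in 27.0, 27.6 and 12.2%, and Klra5 and Klra6 were in 1.35 to 5.41% of cells. For these 8 genes the intervals of these shares in populations 1, 4 and 7 overlapped in each case. The summed level of Klra4 did differ, at 331, 393 and 155 CPM in populations 1, 4 and 7. It was 2.54-fold higher in population 4 than in population 7, and 2.40-fold without the cell with the most UMIs. Counting the 8 genes within a cell, 22 of 111, 27 of 185 and 11 of 74 NK cells had a UMI of none, 15, 30 and 21 of exactly 1, 29, 46 and 19 of exactly 2, and 45, 82 and 23 of 3 or more. The median was 2 genes in each population, and the means were 2.07, 2.25 and 1.82 genes per NK cell against 0.0392, 0.0531 and 0.0671 per CD8 T cell with Pdcd1 in the same populations. A transcript can be missed in a cell, and a read can be counted at a near-identical copy, so the number of genes per cell is approximate. In cells thinned to 1500 UMIs, Klra8 was seen in 32.0% of NK cells and 0.134% of B cells, which should lack it.

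**Figure D3:**
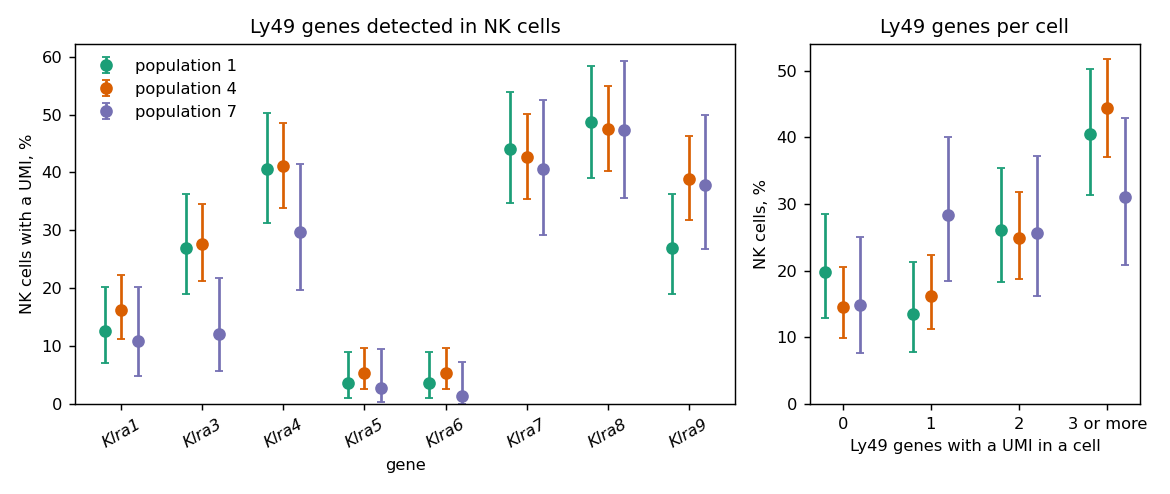
Left, percentage of NK cells with at least 1 UMI of each of 8 Ly49 (Klra) genes; right, percentage of NK cells with a UMI of 0, 1, 2, or 3 or more of these genes, both by population with exact 95% intervals. Klra8 and Klra7 lie between 40.5 and 48.6% in each population, Klra5 and Klra6 at 5.41% or below, and 31.1 to 44.3% of cells had 3 or more of the genes.

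Granzyme genes of chromosome 14 were abundant in NK cells. Gzmc, which encodes granzyme C, a protease of the granzyme B neighbourhood, had 19883 UMIs in NK cells, or 6939 CPM (6843 to 7036), against 60.4 CPM (59.0 to 61.7) in other cells, a ratio of 115 (112 to 118). Its ratios within populations 1, 4 and 7 were 33.2, 44.4 and 224. The genes of the cluster (chr14:56117626-56262260, GRCm38) are 7 in the table, and the 6 measured were each higher in NK cells. They summed to 10469 CPM in NK cells and 511 CPM in other cells. Gzmb had 1627 CPM in NK cells and 292 CPM in other cells (5.57-fold), Gzmd 756 against 28.9 CPM (26.1-fold), Gzme 284 against 19.5 CPM (14.6-fold) and Gzmf 786 against 109 CPM (7.24-fold). Gzmn had 0 UMIs in both. These genes are close copies, so single reads could have been placed at the wrong member. The stretches of 250 bases before the starts of Gzmc, Gzmd and Gzmb, from RefSeq on the minus strand of GRCm38.p6, are printed to show 3 start regions of this cluster. Each of these 3 genes was higher in NK cells in the pooled comparison. Whether the same cells carried them was not tested. Capitals mark the letters TGTGGT (RUNX) on either strand, seen as ACCACA on the other one, and TGANTCA (AP-1), where N is any base.
Gzmc (chr14:56234658-56234907): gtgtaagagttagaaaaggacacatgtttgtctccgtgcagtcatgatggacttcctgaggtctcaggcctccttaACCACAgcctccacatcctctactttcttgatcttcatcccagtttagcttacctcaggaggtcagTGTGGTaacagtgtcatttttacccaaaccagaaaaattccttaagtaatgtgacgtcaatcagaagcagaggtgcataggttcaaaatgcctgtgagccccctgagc
Gzmd (chr14:56132594-56132843): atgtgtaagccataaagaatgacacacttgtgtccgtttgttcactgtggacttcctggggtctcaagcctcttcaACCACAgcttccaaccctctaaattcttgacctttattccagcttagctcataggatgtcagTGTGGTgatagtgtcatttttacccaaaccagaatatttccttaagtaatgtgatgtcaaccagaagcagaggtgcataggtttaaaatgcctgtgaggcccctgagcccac
Gzmb (chr14:56262335-56262584): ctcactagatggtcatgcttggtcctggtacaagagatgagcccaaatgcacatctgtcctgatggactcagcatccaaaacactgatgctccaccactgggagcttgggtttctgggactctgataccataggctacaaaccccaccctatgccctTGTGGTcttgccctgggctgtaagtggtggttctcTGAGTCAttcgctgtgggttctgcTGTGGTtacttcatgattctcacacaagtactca
Each of the 3 holds 2 RUNX matches and Gzmb 1 AP-1 match, with no overlap between them. Of 32851 mouse promoters of the same length, 4614 (14.05%) hold a RUNX match and 2217 (6.75%) an AP-1 match on either strand. The T-box letters GGTGTGA, held by 3.33% of promoters, were not found in these windows. Letters in a window are a description and not a binding site.

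Gzmc transcripts were concentrated in part of the NK cells. A Gzmc UMI was seen in 45 of 111, 113 of 185 and 27 of 74 NK cells of populations 1, 4 and 7 (40.5, 61.1 and 36.5%). The median NK cell had 0, 780 and 0 CPM of Gzmc in these populations, and the highest cell had 467, 903 and 1272 UMIs. In cells thinned to 1500 UMIs, 38.9% of NK cells had a Gzmc UMI, against 2.38% of other cells, which include B cells, and 2.13% of B cells. The other cells were not alike. CD8 T cells with Pdcd1 in populations 1, 4 and 7 had 203, 428 and 539 CPM of Gzmc, against 60.4 CPM over all other cells. Gzma, the other main granzyme of NK cells, was carried more widely, in 62.2, 69.2 and 82.4% of cells, with median levels of 712, 1039 and 7045 CPM per cell. Thinned shares for Gzma were 62.7% in NK cells and 1.27% in B cells. Gzmd was seen in 14.4, 20.5 and 9.46% of NK cells, and 526 of its 697 UMIs in population 7 were in 1 cell. Gzmg had 219 UMIs in all, 169 of them in 2 cells of population 7. Its log2 ratio to other cells was 5.43, and 2.21 when only NK cells without a Cd3e, Cd3d or Cd3g UMI were used. Within populations the ratio to other cells also varied: Gzmf had 225, 1029.7 and 1129 CPM in NK cells against 242, 401 and 37.7 CPM in other cells, so it was not higher in population 1.

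Of all 18 measured cytotoxic effector genes, 15 were higher and 2 lower in NK cells, with a median log2 ratio of 2.82. Within populations 1, 4 and 7, 9 were higher in every one and 1 lower in every one. Perforin (Prf1), the pore former, had 476 CPM in NK cells and 72.5 CPM in other cells (6.56-fold). Ratios within populations 1, 4 and 7 were 1.496, 3.35 and 15.1 for Prf1 and 1.08, 2.52 and 13.9 for Gzmb. Fas ligand (Fasl) stood at 132 CPM in NK cells and 19.2 CPM in other cells (6.84-fold) and TRAIL (Tnfsf10) at 62.5 against 15.8 CPM (3.96-fold). The granzyme B inhibitor Serpinb9, which shields a killer cell from its own granzymes, had 433 CPM in NK cells and 39.1 CPM in other cells (11.1-fold). Gzmk, a granzyme of memory and exhausted T cells, was lower, at 3.84 CPM in NK cells and 20.8 CPM in other cells, as was Lamp1.

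Among 16 measured cytokines and chemokines, 6 were higher and 4 lower. Xcl1, which attracts cross-presenting dendritic cells, had 1483 CPM in NK cells and 40.2 CPM in other cells (36.9-fold). Ccl5 had 2489 CPM in NK cells and 1041 CPM in other cells (2.39-fold), and Flt3l, the growth factor of dendritic cells, 126 against 38.4 CPM (3.28-fold). Ifng was 2.04-fold higher, at 135 CPM in NK cells and 66.5 CPM in other cells. Both Ccl5 and Ifng turned round inside populations. Ccl5 had 1486, 1393 and 4732 CPM in NK cells of populations 1, 4 and 7 against 3483, 1922 and 605 CPM in other cells, and Ifng 123, 99.0 and 198 CPM against 228, 147 and 41.1 CPM. They were thus above the other cells in population 7 and below them in populations 1 and 4. Tnf was lower in the pooled comparison, at 35.6 CPM in NK cells and 85.3 CPM in other cells, as were Csf1, Areg and Il10. In every one of populations 1, 4 and 7, 5 genes of this list were higher and 2 lower. Ccl3 and Ccl4 differed by less than 1.2-fold in the pooled comparison, but had ratios of 0.486, 0.0906 and 1.34 for Ccl3 and of 0.580, 0.201 and 1.48 for Ccl4 within populations 1, 4 and 7.

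Of 15 measured cytokine receptors, 6 were higher and 3 lower in NK cells, with a median log2 ratio of 0.20. Il12rb2 had 204 CPM in NK cells and 31.4 CPM in other cells (6.51-fold), Il18rap 131 against 16.9 CPM (7.73-fold) and Ifngr1 1037 against 237 CPM (4.37-fold). Il7r, Il21r and Tgfbr1 were lower, at 46.4, 48.9 and 26.9 CPM in NK cells against 143, 150.0 and 101 CPM in other cells. In every one of populations 1, 4 and 7, 5 cytokine receptors were higher and only 1 lower. Over all measured genes 14.1% were lower in the pooled comparison and 7.41% lower in every one of these populations.

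Maturation and homing genes gave a mixed picture. Kit, the stem cell factor receptor of early NK cells, had 137 CPM in NK cells and 4.43 CPM in other cells (31.0-fold), and Cd7 had 299 against 41.1 CPM (7.26-fold). Irf8 and Emb were also higher, at 1016 and 807 CPM in NK cells against 223 and 226 CPM in other cells. Itgam (CD11b) and Zeb2, which mark mature NK cells, were lower than in the other cells, at 9.07 and 79.9 CPM in NK cells against 72.2 and 312 CPM in other cells, where macrophages and monocytes carry both. S1pr5, the receptor by which mature NK cells leave tissue, had only 44 UMIs in NK cells but was 32.6-fold higher (21.6 to 49.1). Of the 16 maturation genes 8 were higher and 3 lower, and of 16 homing receptors 5 were higher, among them Ccr2, Cxcr3, Itgal and S1pr5, and 3 lower, S1pr1, Ccr7 and Cxcr6. S1pr1, the receptor for leaving tissue into lymph, had 5.93 CPM in NK cells against 85.8 CPM in other cells, but ratios of 0.335, 0.306 and 6.50 within populations 1, 4 and 7. In every one of populations 1, 4 and 7, 2 homing receptors were higher and 2 lower. The shares over all measured genes were 6.43% higher and 14.1% lower when pooled, and 3.66% and 7.41% in every one of these populations. Ccr2, a chemokine receptor of cells that enter inflamed tissue, had 261 CPM in NK cells and 73.9 CPM in other cells, with ratios of 2.41, 2.52 and 1.32 within populations, and Cxcr6, a receptor of cells held in tissue, 15.4 against 74.3 CPM (0.207-fold).

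Genes of innate lymphoid cells type 1 and tissue residency gave 4 higher and 3 lower of 17, and within populations 1, 4 and 7, 2 higher and 1 lower in every one. Over all measured genes 6.43% were higher and 14.1% lower, and 3.66% and 7.41% in every one of these populations. The lower genes of this list and of the transcription factors below were near those shares. Itga1 (CD49a) had 82.7 CPM in NK cells and 11.04 CPM in other cells (7.49-fold), Cd160 78.5 against 12.9 CPM (6.09-fold) and Ahr 68.4 against 23.7 CPM (2.88-fold). Zfp683, the residency factor Hobit, had 19 UMIs in NK cells. Among 20 transcription factors 8 were higher and 2 lower. Stat4, which relays interleukin 12, had 330 CPM in NK cells and 102 CPM in other cells (3.24-fold), Runx3 189 against 81.4 CPM (2.32-fold) and Gata3 42.2 against 15.7 CPM (2.69-fold). Klf2 and Zeb2 were the lower ones, but Klf2 had ratios of 1.03, 0.693 and 0.901 within populations 1, 4 and 7.

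PD-1 itself was rare in NK cells. Pdcd1 had 77 UMIs in them, 26.9 CPM against 46.9 CPM in other cells (ratio 0.573, 0.452 to 0.717), and was seen in 7 of 111, 13 of 185 and 4 of 74 NK cells of populations 1, 4 and 7 (6.31, 7.03 and 5.41%). NK cells with a Pdcd1 UMI were deeper, with median UMIs of 8794, 9920 and 12418.5 against 5172.5, 6706.5 and 4508.5 in NK cells without one. After thinning, 2.00% of NK cells and 0.378% of B cells had a Pdcd1 UMI. Of the 2 PD-1 ligands, Pdcd1lg2 (PD-L2) was higher in NK cells, at 90.04 CPM against 23.2 CPM in other cells (3.88-fold), and Cd274 (PD-L1) was lower, at 89.0 against 184 CPM (0.484-fold). Thinned shares of cells with a Pdcd1lg2 UMI were 10.5% in NK cells and 5.48% in B cells. Of 14 checkpoint and costimulation genes 3 were higher and 5 lower, and within populations 1, 4 and 7, 1 was higher in every one, Pdcd1lg2, and 3 were lower. Cd274 had ratios of 0.249, 0.244 and 0.629 within them. Tnfrsf18 (GITR) was the third higher gene. Tnfrsf9 (4-1BB), a costimulatory receptor of activated killer cells, had 670 CPM in NK cells and 113 CPM in other cells (5.92-fold). Tnfrsf4 (OX40) had 1.74 CPM in NK cells and 58.3 CPM in other cells.

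Interferon response, immediate early, cell cycle and energy genes were not higher in NK cells in the pooled comparison, with 1 exception. Of 15 interferon response genes 0 were higher and 3 lower: Ifi27l2a with 80.3 CPM in NK cells and 1169 CPM in other cells, Ly6a with 481 against 1727 CPM and Gbp2 with 51.3 against 301 CPM. When taken within populations 1, 4 and 7, 0 were higher and 6 lower in every one, these 3 with Isg15, Ifit3 and Bst2. The ratios for Bst2 were 0.446, 0.264 and 0.239. Among 15 stress and immediate early genes none was higher and 4 were lower, including Fos with 292 CPM in NK cells and 1230 CPM in other cells. In every one of populations 1, 4 and 7, 0 stress and immediate early genes were higher and 2 lower. These genes can be set off by cell isolation, and their part in any result was not tested. Of 13 cell cycle genes 0 were higher and 3 lower, and of 14 glycolysis and hypoxia genes Hilpda was higher and Bnip3 and Slc16a3 were lower. Over all genes 6.43% were higher and 14.1% lower, near the shares of the glycolysis and hypoxia list. Within populations 1, 4 and 7, 0 genes of that list were higher and 2 lower in every one. The cell cycle list also had 0 higher and 2 lower in every one. Median mitochondrial shares were 1.13% in NK cells and 1.67% in other cells. Of 15 motility and adhesion genes 3 were higher, Itgb1, Selplg and Spn, and 0 lower. Within populations 1, 4 and 7, 2 motility and adhesion genes were higher and 1 lower in every one.

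Against CD8 T cells with Pdcd1, the other killer cells in the same populations, calls were made for 10 of 18 activating receptor and adaptor genes and for 2 of 17 cytotoxic genes. These T cells were the 1133 cells with at least 2 Cd3 UMIs, at least 2 of Cd8a and Cd8b1 and at least 1 of Pdcd1, and populations 1, 4 and 7 held 586, 320 and 149 of them. A gene was called where the ratio reached 2-fold the same way in each of the 3 populations, with each interval leaving out 1. Of 9355 measured genes, 276 (2.95%) were higher in NK cells and 282 (3.01%) lower, and leaving out population 7 gave 440 lower. The genes of the 2 rules (NK and CD8 T) were left out.

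The genes highest against CD8 T cells were Klra4, Klra7, Klra8, Klra9, Klrb1a, Klrb1f, Atp1b1, Rbpms, Sh2d1b1 and Tyrobp. Tyrobp had 2553, 2721 and 2652 CPM in NK cells of populations 1, 4 and 7, against 32.0, 30.6 and 22.8 CPM in CD8 T cells, and the intervals of these summed levels did not overlap in any population. Sh2d1b1, the adaptor EAT-2, had 61.3, 67.8 and 59.8 CPM in NK cells against 0.470, 0.408 and 0.671 CPM in CD8 T cells. Atp1b1, a subunit of the sodium pump, had 137, 122 and 124 CPM in NK cells against 0.941, 0.815 and 2.01 CPM in CD8 T cells. Klra4 had 331, 393 and 155 CPM in NK cells and 0 UMIs in the CD8 T cells of all 3 populations, and was at least 470-, 322- and 76.7-fold higher against a limit of 3 counts per population. Of 18 activating receptors and adaptors 9 were higher and 1, Cd226, lower, and of 16 inhibitory receptors 5 were higher and 2 lower. Fcgr3 was one of the higher ones here, with 87.6, 65.1 and 90.7 CPM in NK cells against 7.29, 11.8 and 6.71 CPM in CD8 T cells.

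The genes lowest against CD8 T cells were Cd5, Cd6, Themis, Havcr2, Tnfrsf4, Cxcr6, Gzmk, Csf1, Adam19 and 5830405F06Rik. Cd6 and Cd5, receptors that tune T cell receptor signalling, had 0, 2 and 1 and 1, 2 and 1 UMIs in the NK cells of populations 1, 4 and 7. Cxcr6 had 19.0, 11.96 and 10.3 CPM in NK cells against 846, 964 and 561 CPM in CD8 T cells. Havcr2 had 5.84, 0 and 4.12 CPM in NK cells against 354, 485 and 247 CPM in CD8 T cells. Adam19, a membrane protease, had 4.38, 3.99 and 2.06 CPM in NK cells against 146, 145 and 134 CPM in CD8 T cells. 5830405F06Rik varied among the CD8 T cells themselves, with 733, 53.8 and 558 CPM, and was at 5.84, 1.99 and 0 CPM in NK cells.

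Of 17 cytotoxic effector genes measured against CD8 T cells, Gzmc was higher in NK cells, Gzmk was lower, and 15 had no call in every population. Gzmc had 3689, 8363 and 8750 CPM in NK cells of populations 1, 4 and 7 against 203, 428 and 539 CPM in CD8 T cells, ratios of 18.2, 19.5 and 16.2. Gzma had 2292, 2198 and 5797 CPM in NK cells against 244, 2319 and 46.3 CPM in CD8 T cells, so it was 9.41-fold and 125-fold higher in populations 1 and 7 and 0.948-fold in population 4. Gzmb had 1108, 1760 and 2351 CPM in NK cells against 2866, 4739 and 2599 CPM in CD8 T cells. Perforin had 394, 452 and 707 CPM in NK cells against 763, 920 and 761 CPM in CD8 T cells, and Fasl differed by less than 1.4-fold in each population. Summed levels of Gzmb and Prf1 in NK cells were thus below those in CD8 T cells in all 3 populations, but not by 2-fold in each. In population 7 the gaps were small, at 2351 against 2599 CPM for Gzmb and 707 against 761 CPM for Prf1. Gzmd stood at 445, 774 and 1436 CPM in NK cells against 212, 675 and 79.9 CPM in CD8 T cells, also without a call.

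Secreted factors separated the 2 classes. Xcl1 had 1796, 1222 and 1173 CPM in NK cells against 16.9, 314 and 169 CPM in CD8 T cells. Ifng ran the other way, with 123, 99.0 and 198 CPM in NK cells against 663, 1074 and 718 CPM in CD8 T cells. Ccl3, Ccl4, Tnf, Csf1 and Areg were also lower in NK cells, so that 1 of 14 measured cytokines was higher and 6 lower, with a median log2 ratio of -1.33 against 0.01 for all genes. Ccl4 had 1083, 264 and 1173 CPM in NK cells against 3807, 4560 and 3005 CPM in CD8 T cells. Ccl5 had no common direction, with 1486, 1393 and 4732 CPM in NK cells against 6994, 7988 and 3092 CPM in CD8 T cells.

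**Figure D4:**
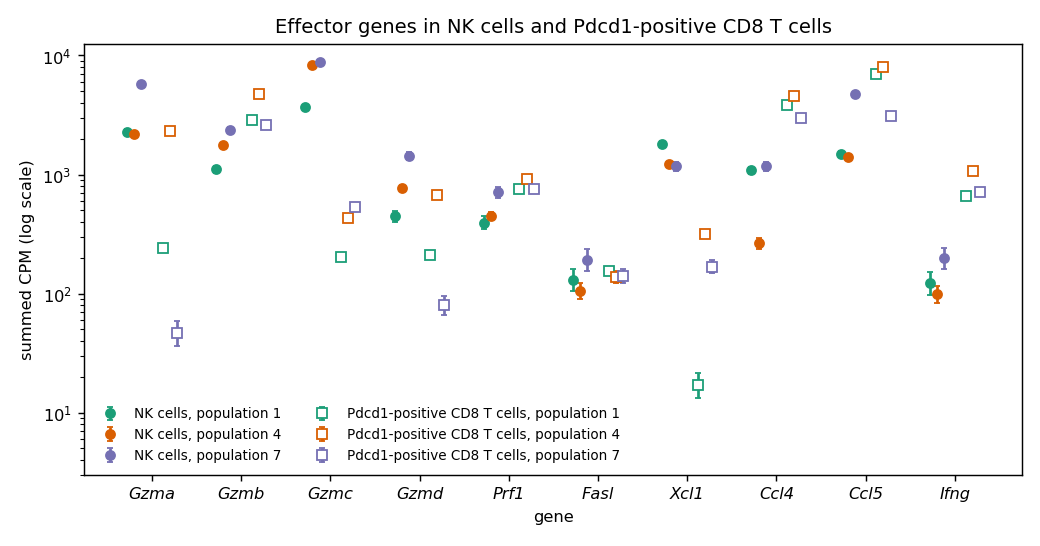
Summed CPM (log scale) of 10 effector genes in NK cells (filled circles) and CD8 T cells with Pdcd1 (open squares) of populations 1, 4 and 7; bars are exact Poisson 95% intervals. Gzmc and Xcl1 lie higher in NK cells in each population and Ifng and Ccl4 lower, while Gzma and Ccl5 have no common direction.

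Regulators of maturation and homing also differed from CD8 T cells. Eomes had 196, 142 and 210.2 CPM in NK cells of populations 1, 4 and 7 against 13.4, 13.9 and 12.8 CPM in CD8 T cells, whereas Tbx21 was level, at 228, 215 and 210.2 CPM in NK cells against 209, 216 and 205 CPM. Tcf7, the factor TCF-1 of less differentiated lymphocytes, had 124, 108 and 57.7 CPM in NK cells against 11.8, 8.56 and 6.71 CPM in CD8 T cells. Klf2 and Bach2, which hold lymphocytes in a resting state, were higher too, with 279, 141 and 317 CPM and 270.1, 256 and 259.7 CPM in NK cells against 55.0, 58.7 and 65.1 CPM and 109.6, 109 and 122 CPM in CD8 T cells. Of 20 transcription factors 5 were higher (Eomes, Irf8, Klf2, Tcf7 and Bach2) and 2 lower (Ikzf2 and Batf). Ccr2 had 253, 282 and 204 CPM in NK cells against 33.9, 48.9 and 11.4 CPM in CD8 T cells. Of 14 homing receptors 3 were higher, Ccr2 and Cxcr4 among them, and 2 lower, Ccr7 and Cxcr6. Of 14 maturation genes 7 were higher, Klf2, Kit, Cd7, Tcf7, Emb, Irf8 and Samd3, and Cd27 was lower.

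Checkpoint and costimulatory genes were lower in NK cells than in CD8 T cells in 5 of 13 cases and higher in 0. Ctla4 had 299, 238 and 103 CPM in NK cells against 727, 684 and 644 CPM in CD8 T cells, and Icos 56.9, 80.4 and 70.1 CPM against 511, 686 and 440.1 CPM. Lag3, counted with the inhibitory receptors, had 94.9, 96.3 and 72.1 CPM in NK cells against 859, 1122 and 635 CPM in CD8 T cells. Tnfrsf9 was high in both classes, at 547, 790.1 and 664 CPM in NK cells and 621, 1219 and 1327 CPM in CD8 T cells. The CD8 T cells had been chosen for Pdcd1, whose levels of 21.9, 33.9 and 22.7 CPM in NK cells and 586, 557 and 504 CPM in CD8 T cells follow from the rule. This choice may also shape the levels of other genes in these T cells, among them checkpoint, transcription factor and cell cycle genes. How far it does was not tested.

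Growth, metabolic and interferon genes completed the comparison with CD8 T cells. Of 13 cell cycle genes 6 were lower in NK cells and 0 higher. Mki67 had 32.1, 28.6 and 10.3 CPM in NK cells against 95.7, 84.8 and 199 CPM in CD8 T cells. Of 14 glycolysis and hypoxia genes Hif1a and Slc16a3 were lower, and Gapdh had 2329, 2311 and 2718 CPM in NK cells against 4477, 5249 and 7134 CPM in CD8 T cells, short of the limit in population 1. Of 15 interferon response genes Ifi27l2a and Ly6a were lower and Oasl1 higher. Of 15 cytokine receptors 3 were lower (Il2ra, Il7r and Il21r), and of 15 immediate early genes 0 were called. Itgb1, the CD29 integrin chain, was the 1 higher of 15 motility genes. Among 16 residency genes Ahr, Tmem176a and Tmem176b were higher and Cxcr6, Inpp4b and Il7r lower.

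NK cells of populations 1, 4 and 7 were close to each other for most genes, and the exceptions were of 2 kinds, genes carried by many cells and genes carried by very few. A gene was called where the highest population was at least 2-fold above the lowest and their intervals did not overlap, which held for 227 of 6233 measured genes (3.64%), and for 106 once the cell with the most UMIs of a gene was left out. The median log2 ratio of highest over lowest was 0.45. Tyrobp with 2553, 2721 and 2652 CPM, Il2rb with 1202, 1050.3 and 960.3 CPM and Tbx21 with 228, 215 and 210.2 CPM were examples of level genes.

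Effector genes of population 7 were among the genes carried by many cells. Gzma had 2292, 2198 and 5797 CPM in NK cells of populations 1, 4 and 7, with a UMI in 82.4% of the cells of population 7, and the ratio of highest over lowest was 2.64 and 2.52 without the cell with the most UMIs. Ccl5 had 1486, 1393 and 4732 CPM (3.40-fold, 3.19-fold without that cell), and Ccl3 and Ccl4 were lowest in population 4 with 35.9 and 264 CPM. The other cells had these 3 genes lowest in population 7, with 147, 392 and 35.4 CPM of Gzma, 3483, 1922 and 605 CPM of Ccl5 and 1868, 1309.5 and 791 CPM of Ccl4 in populations 1, 4 and 7.

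Genes highest in population 1 were of another kind. Kit had 219, 132 and 61.8 CPM (3.54-fold, 3.31-fold without the top cell), Cd7 499, 169 and 202 CPM (2.95-fold, 2.69-fold) and Cxcr3 87.6, 37.2 and 14.4 CPM (6.07-fold, 5.57-fold). Ctla4 had 299, 238 and 103 CPM and was seen in 53.2, 54.1 and 24.3% of the NK cells of populations 1, 4 and 7. After thinning it was seen in 18.5% of NK cells and 2.2% of B cells. Emb, Tcf7, Irf7, Cd28, Jun and Nr4a1 followed the same order of population 1 over 7. In other cells the ratios were 3.61 for Kit, 6.63 for Cd7 and 5.69 for Ctla4, as large as in NK cells or larger, and the part of the other cells' RNA in these levels was not tested. Maturation genes had a call for 6 of 13 and NK identity genes for 1 of 9, Itga2.

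Dynlt1b, a dynein light chain gene, had 50 UMIs in 31 NK cells of population 1 and 1 UMI in population 4. The levels in populations 1, 4 and 7 were 73.0, 0.664 and 2.06 CPM in NK cells, 63.3, 1.22 and 0 CPM in CD8 T cells with Pdcd1, and 114, 0.531 and 0.681 CPM in all other cells. It was thus high in each of the 3 cell classes in population 1.

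Several of the other large ratios rested on single cells. The largest spreads, among genes with at least 50 UMIs in the highest population, were those of Dynlt1b, Cxcl9, Gzmg, 2810417H13Rik, Mt2, Csf2, Hist1h1b, 5430421N21Rik, Ccl3 and Ccl1. Of 219 Cxcl9 UMIs in population 7, 212 were in 1 cell, and the ratio of 103 became 3.29 without it. Most UMIs were in 1 cell also for Gzmg, with 152 of 169 UMIs in 1 cell, Cxcl10, with 194 of 211, H2-Ab1, with 149 of 185, Mt2, with 66 of 78, and Ccl1, with 52 of 56. H2-Ab1, an MHC class II gene of antigen-presenting cells, fell to a ratio of 1.41 without that cell, against 7.26 with it. Gzmd fell to 0.791 without it, against 3.23 with it, and Gzmc to 1.66, against 2.37, since 1272 of 4246 Gzmc UMIs in population 7 were in 1 cell. Cytokines and chemokines had a call for 7 of 12 genes and cytotoxic effectors for 6 of 16, among them Gzmg, Gzmd and Gzmc, and Gzmb had a ratio of 2.12 that became 1.92 without its top cell. The dendritic cell marker list, which holds H2-Ab1, summed to 245, 159 and 458 CPM in NK cells of populations 1, 4 and 7, and its part in these results was not tested.

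The NK cells with an Itga1 UMI differed from those without one in few genes. Itga1 encodes CD49a, a collagen receptor that marks tissue-resident NK cells and type 1 innate lymphoid cells. Populations 1, 4 and 7 held 27, 64 and 20 NK cells with it and 84, 121 and 54 without. Of 6232 genes 5 (0.0802%) were higher and 6 (0.0963%) lower in each of the 3 populations. The counts depended on the populations used: leaving out population 1, 4 or 7 gave 18, 14 and 8 higher genes and 15, 12 and 12 lower ones. Depth moved with the split: median UMIs were 5683, 9738.5 and 8064.5 in cells with Itga1 and 5050, 5626 and 4301 in cells without.

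The lower genes included effectors. Ccl5 had ratios of 0.186, 0.151 and 0.247 in populations 1, 4 and 7, Ccl4 of 0.0129, 0.174 and 0.271, and Gzma of 0.207, 0.380 and 0.321. A Gzma UMI was present in 11 of 27, 35 of 64 and 12 of 20 cells with Itga1, and in 58 of 84, 93 of 121 and 49 of 54 cells without it. Nfkbid, an inhibitor-like regulator of NF-kappa-B, had ratios of 0.336, 0.455 and 0.418. Serpinb9b had 0, 6 and 0 UMIs in cells with Itga1 and 30, 35 and 33 in cells without. The sixth gene lies outside the 10 most different ones and is not named. Gzmc levels were 4033, 11590 and 17721 CPM in cells with Itga1 and 3545, 5624 and 2866 CPM in cells without, with ratios of 1.14, 2.06 and 6.18 that missed the limit in population 1. The ratios were 0.245, 0.651 and 0.308 for Gzmb and 0.426, 0.732 and 0.559 for Prf1, also without a call.

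The 5 higher genes were Gzme, Ifitm1, Ifitm2, Sema6d and Pdcd1. Pdcd1 was seen in 2 of 27, 5 of 64 and 3 of 20 cells with Itga1 and in 5 of 84, 8 of 121 and 1 of 54 cells without, and its ratios of 3.57, 2.58 and 15.2 became 0.396, 1.18 and 6.10 without the cell with the most UMIs. Gzme had 96, 293 and 232 UMIs in cells with Itga1 and 71, 123 and 0 in cells without, and 174 of the 232 were in 1 cell. Ifitm1 was seen in 3, 13 and 4 cells with Itga1 and in 5, 10 and 0 without, and Ifitm2 in 9, 23 and 7 cells with Itga1 and in 14, 27 and 5 without. Sema6d was seen in 6, 20 and 6 cells with Itga1 and in 10, 14 and 1 without, with ratios of 2.67, 2.87 and 17.5, and of 1.93, 2.43 and 11.4 without the top cell. When cells were thinned to 1500 UMIs before the split, which left population 4 alone with enough cells, the log2 ratios were -0.24 for Gzme, -0.96 for Ifitm1, -0.72 for Ifitm2 and -0.40 for Pdcd1, the opposite direction. Sema6d kept its direction there at 1.22, as did Ccl5 at -3.51, Ccl4 at -3.30 and Gzma at -1.28. Eomes had ratios of 1.12, 0.747 and 0.577, with no call.

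**Figure D5:**
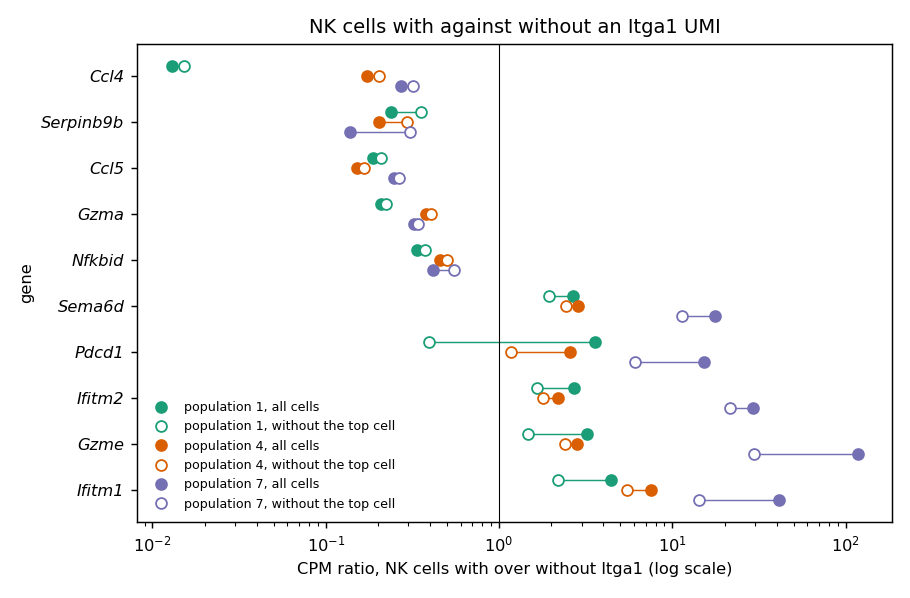
Ratio of summed CPM in NK cells with an Itga1 UMI over NK cells without one (log scale) for the 10 most different genes in populations 1, 4 and 7, from all cells (filled) and without the cell with the most UMIs of the gene (open); the line marks a ratio of 1. Ccl4, Ccl5 and Gzma stay below 1 in each population both ways, while Pdcd1 in population 1 moves to 0.396 from 3.57.

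The 6 populations with few NK cells held 37 of them, and Gzmc was nearly missing there. Of these cells 33 had no Gzmc UMI and 3 had 1. The exception was 1 cell of population 3 with 519 Gzmc UMIs among 16479, together with 136 UMIs of Xcl1, 31 of Cd7, 19 of Itgae, 18 of Cd160 and 3 of Itga1. Gzma was seen in 29 of the 37 cells, Ccl5 in 34, Xcl1 in 33 and Cd7 in 34. Ccl5 reached 11574, 11714, 6965, 12316 and 14946 CPM in NK cells of populations 2, 3, 5, 6 and 8 and 2569.6 CPM in population 9, against 1486, 1393 and 4732 CPM in populations 1, 4 and 7. Ctla4 was seen in 1 of the 37 cells. With 3 to 9 cells each, these levels rest on single cells: 1 cell of population 9 had 73 of Gzmb and 100 of Gzma, and another had 25 UMIs of the proliferation gene Mki67.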

How the data were processed

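RNA was measured by the 10x Genomics 5′ high-throughput single-cell assay, per the labels' protocols. The authors deposited 1 table of whole-number UMI counts per gene and cell, made on mm10 with Cell Ranger, version 8.0.1 in the submitters' processing notes. The sources do not say if intronic reads entered the counts. No barcode was under the authors' stated minimum of 500 UMIs. Of 21624 barcodes, 93 with under 200 genes or over 20% mitochondrial UMIs were removed. The expression libraries share this table, so barcodes they have in common were not counted. A cell was given to the hashtag whose antibody capture count was at least 3 times the next, which left 258 cells, none of them NK cells, without a population. The table names the tags as another TotalSeq type than the labels do.

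From the counts, levels were computed as UMIs summed over cells per 1000000 (CPM), so deeper cells weigh more. NK cells held 2865549 UMIs. Intervals are 95%: exact Poisson for levels, conditional binomial for ratios and Clopper-Pearson for shares. A count of 0 was taken to allow 3 counts. B cells, for the share set by free RNA, had at least 3 UMIs of Cd79a and no Cd3e or Cd3d. Thinning drew 1500 UMIs from each cell. Scrublet at an expected 8% called 1 NK cell among 184 doublets, and doublets were kept.

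The named genes are members of the gene lists, the 15 highest against other cells, the 10 highest and 10 lowest against CD8 T cells, the 10 with the largest spread and the 10 most different in the Itga1 split, rule genes left out. Members and lists were chosen with earlier results of these data known. Calls against other cells, against CD8 T cells and between populations were tested on simulated data, in which 85.57 to 100% of genes changed 4-fold and 0 to 0.802% of unchanged genes were called. The simulated sums held counting error only, with no difference from cell to cell. These rates therefore do not cover genes whose UMIs sit in few cells. Between populations, the direction of a simulated call was not checked. The Itga1 split was not simulated. Gene positions are from GENCODE vM21 and promoters from RefSeq. Alternatives were other limits, stricter and looser rules, thinning, doublet removal and leaving out populations or single cells. Python 3.11.15, numpy 2.4.6, scipy 1.17.1, pandas 2.3.3, scanpy 1.11.5 and matplotlib 3.10.9 were used.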

Additional observations from a re-analysis of the deposited data

Results flagged for a closer look

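The table holds a second set of hashtag features, multiplexing capture, which the comparisons did not use. It gave the same hashtag as antibody capture to 407 of 407 NK cells (100%). It is listed because these features were not used. Both sets name the same 9 tags, and whether this is a separate signal was not tested. The table has 37370056 UMIs of multiplexing capture and 35305304 of antibody capture.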

How the results depend on the processing

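No paired analysis was possible because the labels give no replicate numbers to pair, and cell classes were instead compared within the same populations. The NK share of 1.89% became 1.56% with a marker sum of at least 5, 1.57% without any Cd3 UMI and 0.672% after thinning. Against other cells, a 4-fold limit left 352 higher and 1253 lower genes, and the median of the ratios within populations gave 1978 higher. Against CD8 T cells, a 4-fold limit left 128 higher and 109 lower, at least 200 UMIs gave 144 higher, and leaving out population 7 gave 440 lower. Between populations, a 4-fold limit left 45 genes, at least 200 UMIs 65, thinning 57 and leaving out the top cell 106. In the Itga1 split, a 4-fold limit left 1 higher and 2 lower, at least 200 UMIs 3 higher, and cells without any Cd3 UMI (populations 1 and 4 alone) 9 higher. Leaving out population 1 gave 18 higher and 15 lower, population 4 14 and 12, and population 7 8 and 12. Thinning before the split, which left population 4 alone, gave 43 and 114, and weighting cells equally 12 and 19. The fewer populations or genes of these alternatives set their counts in part, and the cause was otherwise not tested.

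Thinning turned the log2 ratios of Gzme to -0.24, Ifitm1 to -0.96, Ifitm2 to -0.72 and Pdcd1 to -0.40 in the Itga1 split. Between populations, thinning put 2810417H13Rik at -0.092 and Mt2 at -0.0052. Their lowest populations held 1 and 2 UMIs before thinning, and a count of 0 is taken as 3 counts. These 2 signs therefore do not show a change of direction. Without its top cell Ccl1 became -0.73, but population 1 had 0 Ccl1 UMIs, taken as 3 counts. Its sign does not show a change of direction either. Of the values of single genes, 329 stayed, 79 moved and 7, those named above, changed sign. Of the NK shares by population 46 stayed and 8 moved, and of the other counts and shares 47 stayed and 28 moved. Equal weighting, leaving out populations in the Itga1 split and leaving out top cells were chosen after seeing the data. The 37 NK cells outside populations 1, 4 and 7 limit what their levels can show.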

Other observations

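Of the 37 NK cells in the 6 populations with few of them, 8 had no Gzma UMI. None of the 8 had an Eomes UMI, while all 8 had a Cd7 UMI and 7 a Ccl5 UMI. These cells were picked out after their values had been seen, and in cells of this depth a missing UMI does not show a missing transcript.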
